A study of Mus musculus with 16 samples.

Results

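Loss of the transcription factor XBP1, with the gene of its upstream activator IRE1 retained, was examined in conventional type 1 dendritic cells (cDC1s) of mouse spleen by counting mature microRNAs. The comparison was defined by the sample descriptions: 4 small RNA libraries of the Xbp1 KO genotype, numbered 1, 2, 3 and 4, against 4 libraries of the WT genotype of the same line, numbered 4, 5, 6 and 8. These were 8 of the 16 libraries of the series. The other 8 came from a line deficient in both genes and its wild type, and shared the estimate of the spread in the fit. They also entered the count filter, and the smallest of them set the common total for thinning. Their own values are used where the changes of both lines are set side by side and in 1 alternative control group. They are also given for 1 microRNA without counts in the wild type of the Xbp1 line. All samples were labelled as spleen cDC1s of strain C57BL6, sorted in varying cell numbers. The sources used here do not give the age or treatment of the mice, the alleles, the driver of the deletion or whether each library came from a separate mouse. The p-values therefore stand for the spread between these libraries, which may be technical.

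IRE1 is a kinase and ribonuclease in the membrane of the endoplasmic reticulum. When unfolded proteins accumulate, its ribonuclease removes an intron from Xbp1 mRNA, and the spliced mRNA encodes an active transcription factor for genes of protein folding and secretion. The same ribonuclease can cleave other RNAs, a process called regulated IRE1-dependent decay, and this is known to run at a high rate in cDC1s that lack XBP1. MicroRNAs are short RNAs that pair through a seed near the 5′ end with messenger RNAs and lower their translation or stability, and some microRNA precursors have been reported as substrates of the ribonuclease. The comparison therefore asks which mature microRNAs differ when XBP1 is missing while the gene of the ribonuclease is kept. The activity of the ribonuclease was not measured in these libraries, and Xbp1 mRNA is outside a table of microRNAs, so the genotype labels could not be checked.

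The table names each microRNA by a miRBase identifier. None of the reference tables used here pairs these identifiers with names or sequences, so microRNAs are given by identifier, no sequence is shown, and none of the 26 microRNA families, clusters and pathway lists or the 10 groups of cell type markers could be matched. The purity of the sorted cells was therefore not analysed here. In bulk samples, fewer cells of a type and less RNA per cell cannot be told apart.

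The 4 deficient libraries held 1106247, 969371, 1403393 and 783372 counts in the order of their numbers. The 4 wild-type libraries held 1103001, 1046657, 753185 and 400210, so wild-type 6 and 8 were shallower than every deficient library, although the difference of the group means was within the spread (exact two-sided permutation p = 0.314, n = 4 per group; Benjamini-Hochberg adjusted p = 0.419 over 4 library measures). Of the 853 microRNAs, 691 had at least 1 count in these 8 libraries and 246 had counts in all 8. After thinning every library to 175165 counts, the number detected was 322 ± 10.8 (SD, n = 4) in wild type and 324 ± 8.35 in deficient cells (exact two-sided permutation p = 0.914, adjusted p = 0.914). The 10 most abundant microRNAs took 73.2% to 75.8% of the counts in the wild-type and 76.2% to 78.8% in the deficient libraries. The groups did not overlap in this share (exact two-sided permutation p = 0.0286, the smallest that 4 against 4 allows; adjusted p = 0.114). Levels ranked alike across libraries: Spearman's rho over the 255 microRNAs tested, which are not independent replicates, was 0.94 to 0.96 within wild type, 0.96 to 0.97 within deficient and 0.93 to 0.96 between a wild-type and a deficient library.

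Xbp1-deficient cDC1s had lower levels of 5 microRNAs and a higher level of 1, out of 255 tested (2.35% called; 0.392% higher and 1.96% lower). The lower ones included MIMAT0000516, lower by a factor of 2.33, and MIMAT0000165, lower by a factor of 3.13. The higher one, MIMAT0000539, was the fourth most abundant microRNA of these cells. Calls rested on edgeR's quasi-likelihood test with a Benjamini-Hochberg adjusted p under 0.05 over all 255. Levels are CPM, counts scaled to a common total, with library sizes adjusted by the trimmed mean of M values (TMM), and fold changes are deficient over wild type.

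MIMAT0000516 stood at 12888, 8136, 8392 and 12940 CPM in wild-type libraries 4, 5, 6 and 8, and at 4430, 4647, 4240 and 4840 CPM in deficient libraries 1 to 4. The deficient libraries lay close together, and each was below the lowest wild-type library. The wild type fell into a lower pair, libraries 5 and 6, and a higher pair, libraries 4 and 8. Each pair held 1 of the 2 shallow libraries, and the cause of the split was not tested. Raw counts were between 3612 and 13653 per library. The log2 fold change was −1.22 (SE 0.15, 95% interval −1.54 to −0.90; edgeR adjusted p = 5.52e-05). It ranked 19th by level and was the single one of the 6 that passed in all 22 alternative fits and in 10 further fits with the count filter applied again to fewer libraries; in the 22, its log2 fold change ranged from −1.57 to −0.95.

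MIMAT0000165 stood at 323, 287, 324 and 375 CPM in wild-type libraries 4, 5, 6 and 8, against 139, 114, 56.2 and 109 CPM in deficient libraries 1 to 4. The groups were far apart, and deficient library 3, the deepest of the 8, held the lowest value. The log2 fold change was −1.65 (SE 0.30, 95% interval −2.27 to −1.02; edgeR adjusted p = 0.0037), on raw counts of 155 to 342 in wild type and 70 to 144 in deficient cells. Leaving out any 1 of the 8 libraries kept the call, with log2 fold changes of −1.80 to −1.43.

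MIMAT0000539 stood at 39005, 37565, 34781 and 37019 CPM in wild-type libraries 4, 5, 6 and 8, and at 62550, 56736, 67784 and 52161 CPM in deficient libraries 1 to 4. The wild-type values were tight and the deficient ones all above them. The log2 fold change was 0.69 (SE 0.16, 95% interval 0.35 to 1.03; edgeR adjusted p = 0.0190), a factor of 1.61. The call was lost without wild-type 6 (log2 fold change 0.66, edgeR adjusted p = 0.0782) or without wild-type 8 (0.69, adjusted p = 0.0643), while the size of the change hardly moved. With the count filter applied again to the libraries left, it was also lost without deficient 1 (0.72, adjusted p = 0.0505) or without deficient 3 (0.64, adjusted p = 0.0626).

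The other 3 microRNAs that fell covered low to high levels. The rarest went from 93.3 ± 29.3 CPM (SD, n = 4) in wild type to 27.7 ± 9.06 CPM in deficient cells, with a log2 fold change of −1.75 (SE 0.36; edgeR adjusted p = 0.0109). The next, ranked 50th by level, went from 2401 ± 463 to 1348 ± 339 CPM, with a log2 fold change of −0.83 (SE 0.20, adjusted p = 0.0190). The most abundant of the 3, ranked 10th, went from 29477 ± 1640 to 21579 ± 1101 CPM, with a log2 fold change of −0.45 (SE 0.10, adjusted p = 0.0190). The last had the least stable call: it passed in 1 of the 8 fits that left out a library, against 6 of 8 for the rarest and 3 of 8 for the one ranked 50th, with none of the 3 changing sign.

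**Figure D1:**
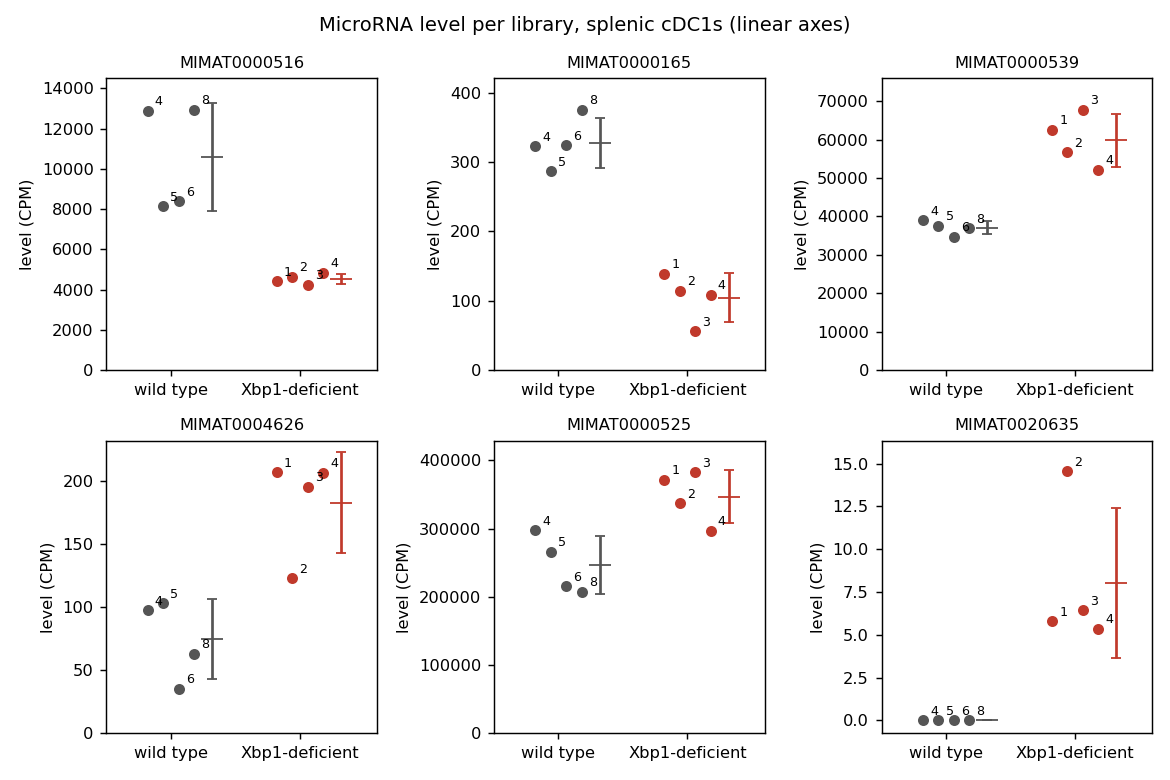
Level in CPM (vertical axes, linear) of 6 microRNAs in the 4 wild-type (grey) and 4 Xbp1-deficient (red) libraries; points carry the replicate number, horizontal bars and whiskers are mean and SD. The groups do not overlap in 5 panels, against 11.8% of all 255 microRNAs tested. Panels were chosen by p, by level or for zeros in wild type, which makes this likely. In MIMAT0000525, deficient library 4 and wild-type library 4 lie side by side at 296506 and 297125 CPM.

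The next higher microRNA by p, MIMAT0004626, did not pass. It stood at 97.2, 103, 35.1 and 63.0 CPM in wild-type libraries 4, 5, 6 and 8, and at 207, 123, 195 and 206 CPM in deficient libraries 1 to 4. The groups did not overlap, but the log2 fold change, 1.28 (SE 0.36, 95% interval 0.52 to 2.03; edgeR adjusted p = 0.0793), missed the threshold. DESeq2 called it at 1.30 (adjusted p = 0.00992).

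MIMAT0000525, the most abundant microRNA of every library and named here after its values were seen, took 21.4% to 28.5% of all counts in wild type and 28.2% to 34.8% in deficient cells. It stood at 297125, 265755, 215453 and 207322 CPM in wild-type libraries 4, 5, 6 and 8, and at 371547, 337392, 382353 and 296506 CPM in deficient libraries 1 to 4. The groups overlapped by deficient library 4, which lay just under wild-type library 4. The log2 fold change was 0.49 (SE 0.15, 95% interval 0.18 to 0.81; edgeR adjusted p = 0.0883), so it did not pass, whereas DESeq2 called it at 0.52 (adjusted p = 0.0372). Within wild type the 2 shallow libraries were also the 2 lowest for this microRNA.

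The 6 called microRNAs were spread over the range of levels. They made up 8.09% ± 0.372 of the counts in wild type and 8.22% ± 0.335 in deficient cells (SD, n = 4). Of the 15 microRNAs at 10000 CPM or more, 2 were called, 1 in each direction; of 42 between 1000 and 10000 CPM, 2 were called; of 56 between 100 and 1000 CPM, 1; and of 142 under 100 CPM, 1. The calls in the last 3 classes were all lower. Over the 255, the median log2 fold change was −0.07, with 115 estimates above 0 and 140 below.

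**Figure D2:**
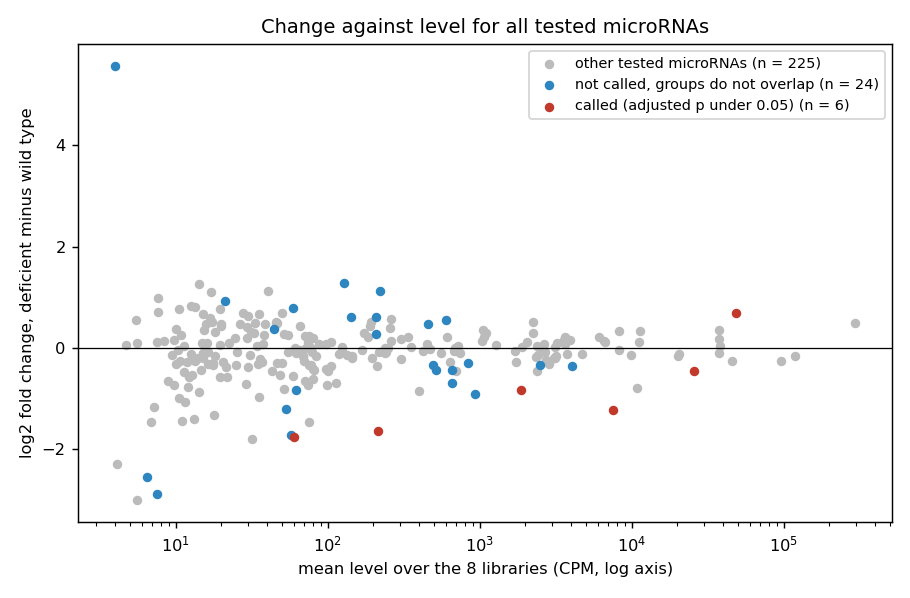
Log2 fold change (vertical axis) against the mean level over the 8 libraries (horizontal axis, CPM, log scale) for the 255 microRNAs tested; red points passed, blue points did not pass although the libraries of both groups do not overlap. The 6 red points run from 60.5 to 48450 CPM, and the blue point near the upper left corner is MIMAT0020635.

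Without regard to the test, 30 of the 255 microRNAs (11.8%) had deficient libraries wholly above or wholly below the wild-type ones, 12 higher (4.71%) and 18 lower (7.06%) in deficient cells. All 6 called microRNAs were among them, which their selection makes likely. At an unadjusted p under 0.05, edgeR gave 14 higher (5.49%) and 26 lower (10.2%). DESeq2, run on the same 255, called 18 (7.06%), 7 higher (2.75%) and 11 lower (4.31%), and these included all 6 of edgeR.

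The precision of these libraries sets which changes can be bounded. For 112 of the 255 microRNAs the 95% interval of the log2 fold change lay wholly between −1 and 1, so that a change of 2-fold or more was outside the interval. This held for 13 of 15 microRNAs at 10000 CPM or more, 39 of 42 between 1000 and 10000 CPM, 41 of 56 between 100 and 1000 CPM and 19 of 142 under 100 CPM. The median SE grew from 0.14 in the most abundant class to 0.52 in the rarest. Among the 25 most abundant microRNAs, the interval reached 2-fold for 3: MIMAT0000516, MIMAT0000539 and the microRNA ranked 15th. The last stood at 6788, 15925, 22050 and 10211 CPM in wild-type libraries 4, 5, 6 and 8, and at 7227, 10964, 6907 and 6718 CPM in deficient libraries 1 to 4. The groups overlapped: 3 deficient libraries lay within the wild-type range and deficient library 4 just below it. Its log2 fold change of −0.79 (SE 0.39, 95% interval −1.61 to 0.03; edgeR adjusted p = 0.358) did not pass.

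**Figure D3:**
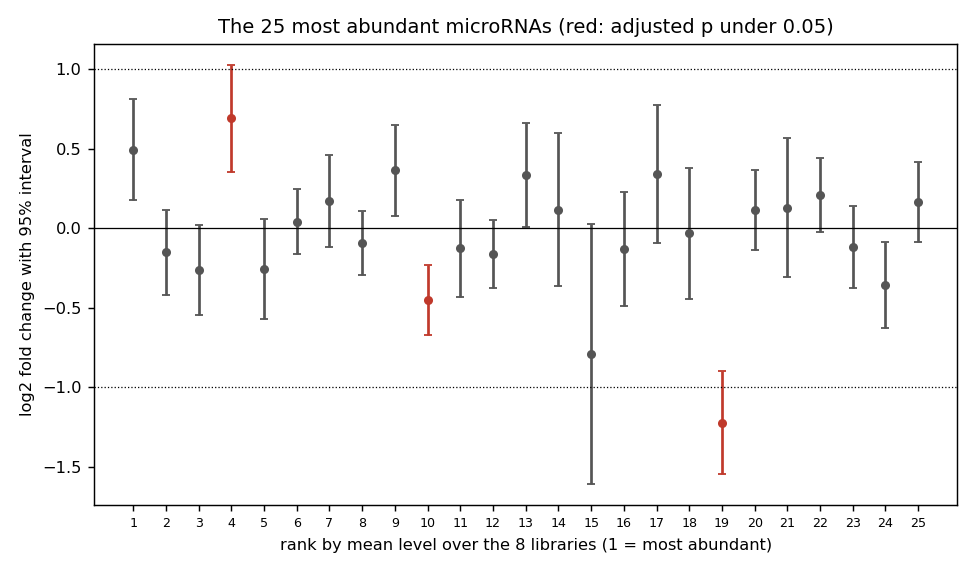
Log2 fold change in deficient cells with its 95% interval (vertical axis) for the 25 most abundant microRNAs in order of level (horizontal axis); red marks those that passed, dotted lines mark 2-fold. The interval lies within 2-fold for 22 of the 25; ranks 4, 15 and 19 are the exceptions.

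Presence against absence was rare. A single microRNA, MIMAT0020635, named here after its values were seen, had counts in all 4 deficient and in none of the 4 wild-type libraries of the line. Its raw counts were 6, 14, 8 and 4 in deficient libraries 1 to 4 and 0 in wild type. Against a floor of 3 counts summed over the 4 wild-type libraries, its pooled level of 8.02 CPM was 8.90-fold higher. It was picked for these zeros, so this value describes the selection and tests nothing. The floor allows for counting error in wild type only, not in the deficient libraries. It did not pass in edgeR (adjusted p = 0.112), while DESeq2 called it (adjusted p = 0.0227). Wild-type libraries 1, 2 and 3 of the compound line, which belong to no group of this comparison, held 1, 8 and 1 counts of it, so counts of this microRNA were not absent from wild-type cDC1s. Of these, library 2 stood at 13.8 CPM, against 5.79, 14.6, 6.43 and 5.36 CPM in Xbp1-deficient libraries 1 to 4. In the opposite direction, 1 microRNA, below the count filter and not tested, had counts of 11, 5, 2 and 1 in wild-type libraries 4, 5, 6 and 8 and 0 in the deficient ones. MIMAT0020635 itself passed the count filter with all 16 libraries, but not when the filter was applied to the 8 libraries of this line alone.

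Whether these changes were particular to loss of XBP1 alone was tested as their difference from the changes in cells deficient in both genes. No microRNA passed in edgeR (0% of 255, smallest edgeR adjusted p = 0.208). At an unadjusted p under 0.05, edgeR gave 26 (10.2%). DESeq2 called 1 (0.392%), which was none of the 6 called in the Xbp1 line. The lines share no library. For MIMAT0000165 the deficient libraries of the compound line lay at 80.6 to 105 CPM against 221 to 615 CPM in their wild type, and for MIMAT0000539 at 47392 to 87509 CPM against 27690 to 39270 CPM. MIMAT0000516 lay at 4608 to 5563 CPM against 6000 to 7691 CPM there. The ranges of these 3 microRNAs did not overlap between the groups of the compound line. The share of the 255 that were apart there was not counted, so how unusual this is cannot be said. In the compound line, 15 of the 255 passed in edgeR (5.88%), among them 4 of the 6, each in the same direction as in the Xbp1 line; MIMAT0000165 and MIMAT0000539 were 2 of these, while MIMAT0000516 had a log2 fold change of −0.47 (SE 0.15; edgeR adjusted p = 0.0815) and did not pass there. The differences of the log2 fold changes, Xbp1 line minus compound line, were 0.18 (95% interval −0.71 to 1.07), −0.16 (−0.63 to 0.32) and −0.75 (−1.20 to −0.30) for these 3 microRNAs, with edgeR adjusted p of 0.985, 0.884 and 0.208. None was shown to differ between the lines, and none of the intervals shows that the changes were alike. For MIMAT0000516, wild type stood at 8136 to 12940 CPM in the Xbp1 line, above the wild type of the compound line. With all 8 wild-type libraries as control, its log2 fold change in Xbp1-deficient cells was −0.95.

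The number of calls varied when single libraries were left out, which also lowers the number of libraries tested. It was 2 without wild-type 6, 3 without wild-type 8, 3 without deficient 3 and 4 without deficient 1 or without deficient 2. It was 5 without deficient 4, 8 without wild-type 4 and 9 without wild-type 5. Without both wild-type libraries shallower than every deficient one, an alternative chosen after the data were seen, MIMAT0000516 alone passed, and MIMAT0000165 and MIMAT0000539 gave log2 fold changes of −1.54 and 0.64 with edgeR adjusted p of 0.0719 and 0.385. With the log2 total count of each library as a covariate, 8 passed, including all 6.

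**Figure D4:**
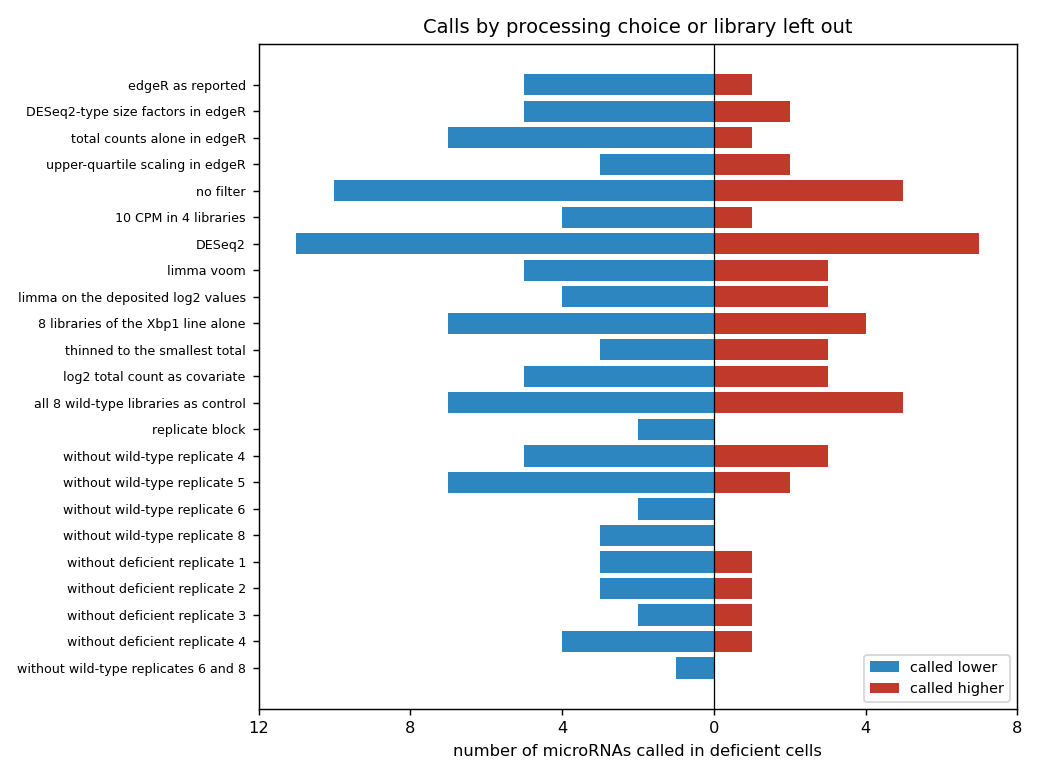
Number of microRNAs called lower (blue, to the left) and higher (red, to the right) in deficient cells (horizontal axis) for each processing choice or library left out (vertical axis). The fit as reported has 5 and 1, and DESeq2 has 11 and 7. Without wild-type replicates 6 and 8 a single lower call is left. The number tested is not the same throughout: it was 255 as reported, 808 without a filter and 163 after thinning.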

How the data were processed

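The table analysed holds raw counts per mature microRNA as deposited by the authors; they also deposited a table of log2 values, used here for 1 alternative; columns were matched to samples by the descriptions. Bowtie 1.1.2, cutadapt 1.8.1, limma 3.42.2 and FastQC 0.11.3 and the builds mm10 and GRCm38 are listed, without roles, in the submitters' processing notes. The sources used here do not give the microRNA release or the handling of reads with several matches, so near-identical microRNAs may share reads. Per the labels' protocols, a TruSeq small RNA kit was used; no molecular identifiers are mentioned, so counts may include PCR copies.

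Counts were fitted in edgeR 4.0.16 (R 4.3.3): TMM scaling, filterByExpr with a minimum count of 10, 4 group means over all 16 libraries, quasi-likelihood F tests, two-sided. The filter kept 255 microRNAs; within each of the 8 Xbp1-line libraries the 598 others made up 0.103% or less of the total. The SE is the size of the log2 change divided by the root of F. Alternatives used limma 3.58.1 and DESeq2 1.42.0. Library measures were compared by exact permutation. The edgeR test of this comparison was also run on counts simulated with known changes, and its outcome is not reported here. No other step was tried on simulated data. Every pair of libraries within a group differed beyond counting noise (chi-square per degree of freedom at least 15.7). None was therefore treated as a repeat sequencing run of another, and each was counted once. Whether they came from separate mice cannot be read from this.

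The comparison, lists and naming rule were chosen with earlier results of these data known. The rule named called microRNAs and list members; without names it was limited to the top 2 by p in either direction, plus MIMAT0000525 and MIMAT0020635. Planned fits by seed family and of arm ratios were not run, since they need sequences or names; 0 of the 853 identifiers occur in the reference tables.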

Additional observations from a re-analysis of the deposited data

Results flagged for a closer look

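The lowest or highest of 4 libraries was noted where its gap to the nearest other library took an unusually large share of the range of its group (Dixon's test at 95%); chance gives this for about 1 in 20 groups, and 18 groups of values were looked at. MIMAT0004626 stood at 123 CPM in deficient library 2, while the remaining libraries of the group had 195 to 207 CPM; this gap made up 0.891 of the range on the log2 scale. After thinning, wild-type library 6 had 306 microRNAs detected, while the remaining wild-type libraries had 327 to 328; this gap made up 0.955 of the range.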

How the results depend on the processing

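As reported, 6 of the 255 tested were called (2.35%). The count became 18 with DESeq2 (7.06%) and 11 in a fit of the 8 libraries alone (4.31%). It became 12 with all 8 wild-type libraries as control (4.71%) and 1 without wild-type 6 and 8 together. With single libraries left out it ran from 2 to 9. Without a filter, 15 of 808 tested were called, a lower share (1.86%), and 5 of the 6 were among them. The cause of these shifts was not tested. The replicate block gave 2 calls, of which 1, MIMAT0000516, was among the 6, but the groups share 1 replicate number, so wild type rests on library 4 alone in that paired fit, and nothing in the labels pairs the libraries. Higher and lower calls were 1 and 5 as reported, 2 and 5 with DESeq2-type size factors, 2 and 3 with upper-quartile scaling, 3 and 3 after thinning and 1 and 7 with total counts alone; the median log2 fold change of all tested was −0.03, 0.06, 0.00 and −0.17 in the same alternatives, against −0.07 as reported, so total counts alone and upper-quartile scaling each shifted it by over 0.1, in opposite directions. None of the 6 called microRNAs changed sign in 22 alternatives. Fits with fewer libraries kept the 255 microRNAs, a choice made after the same fits with the filter applied again had been seen; the latter gave 2 to 8 calls with single libraries left out, 11 in the 8 libraries alone and 1 without wild-type 6 and 8 together, again with no change of sign. For the difference between lines, DESeq2 called 1, which was none of the 6, and leaving out single libraries of the Xbp1 line gave 0. Single libraries of the compound line were not left out. The deficient minus wild-type difference in microRNAs detected after thinning was 1.25 and ran from −4.17 (without wild-type 6) to 4.42 (without deficient 1) with single libraries left out, with −2.25 without deficient 2; none passed the exact permutation test. Fits by seed family and of arm ratios were not run.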
